A study of Mus musculus with 72 samples.

Results

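Kit encodes the receptor tyrosine kinase that binds stem cell factor, and its transcript was followed across 36 4T1 mammary tumours. It is 1 gene of the 1224 on both amplicon panels of the study, read by 1 amplicon on the larger panel. Kit was chosen on these same measurements, because its level differed between the groups and moved with other genes between mice of a group. Its levels, its differences between groups and its likeness to other genes are therefore described without a test. Other genes were tested between groups.

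The tumours came from female BALB/c mice aged 6 to 12 weeks, 9 in each of 4 groups, inoculated with 4T1 cells in the thigh muscle on day -6, treated on day 0 and killed on day 6. BA mice received 492 µg of bintrafusp alfa (M7824), a fusion protein of a PD-L1 antibody with a TGF-β receptor trap. RT mice received radiation with the isotype antibody, BA+RT mice received radiation with 492 µg of bintrafusp alfa, and control mice received 400 µg of the isotype antibody alone. The radiation dose was not given in the sources used here. The tissue labels call the tumours orthotopic, whereas the design places the inoculation in the thigh. 4T1 is 1 transplanted line, and each tumour sample also holds host cells. Epcam, which marks epithelial cells, was counted in all 36 tumours, with a lowest count of 7356.

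Binding of stem cell factor pairs KIT molecules, switches on their kinase and starts signalling through phosphoinositide 3-kinase, the MAP kinases and STAT factors. Mast cells, blood stem and progenitor cells, melanocytes and germ cells depend on the receptor, and mast cells keep it on their surface throughout life. Some mammary luminal progenitor cells also carry it. In bulk tumours, fewer cells of a type and less RNA per cell cannot be told apart.

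The Kit amplicon covered 95 bases of coding exon 11 on the plus strand at chr5:75640704-75640798 (GRCm38, GENCODE M21), the stretch that encodes the juxtamembrane segment between the membrane and the kinase. It is shown because the Kit values below count this segment alone. 2 of the 8 annotated Kit transcripts held it, and no other gene had an exact match. In the sequences below, capitals mark the tyrosine, valine and tyrosine codons of Kit, whose tyrosines dock Src family kinases, and the cysteine codons of Tnfrsf9. Tnfrsf9 is shown beside it as the gene whose level followed Kit most closely between mice. Its amplicon lies in coding exon 3 on the plus strand at chr4:150930733-150930824, in 8 of 9 annotated transcripts, with an exact match in no other gene.
Kit: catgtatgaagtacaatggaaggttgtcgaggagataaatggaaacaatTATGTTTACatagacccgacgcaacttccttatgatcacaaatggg
Tnfrsf9: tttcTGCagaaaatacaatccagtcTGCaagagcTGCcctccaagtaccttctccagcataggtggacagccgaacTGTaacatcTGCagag
The files give 1 value per amplicon, so isoforms of Kit that lack exon 11 were not analysed here. Levels are not compared between genes, and sums over gene lists below weigh each gene by the counts of its amplicon. Kitl, the gene of stem cell factor, was not analysed here.

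Kit was low in every irradiated tumour. Levels are given in CPM, counts scaled to a common panel total by TMM, as the lowest, the median and the highest of 9 mice. Kit had 59.8, 104 and 158 CPM in BA tumours, 19.6, 30.1 and 51.4 CPM in RT tumours, 18.3, 27.7 and 37.4 CPM in BA+RT tumours and 58.7, 85.1 and 109 CPM in control tumours. The 18 irradiated tumours did not overlap with the 18 unirradiated ones, since the highest irradiated value was 51.4 CPM and the lowest unirradiated value 58.7 CPM. Kit was not alone in this. The chemokine Ccl5 also separated them, in the other direction, with a lowest irradiated value of 586 CPM and a highest unirradiated value of 357 CPM. The share of all genes that separated in this way is not given here. Within either set the groups overlapped. BA tumours averaged 105 ± 27.03 CPM, RT tumours 32.4 ± 10.6 CPM, BA+RT tumours 27.2 ± 6.65 CPM and control tumours 83.9 ± 17.7 CPM (SD, n = 9 each).

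**Figure D1:**
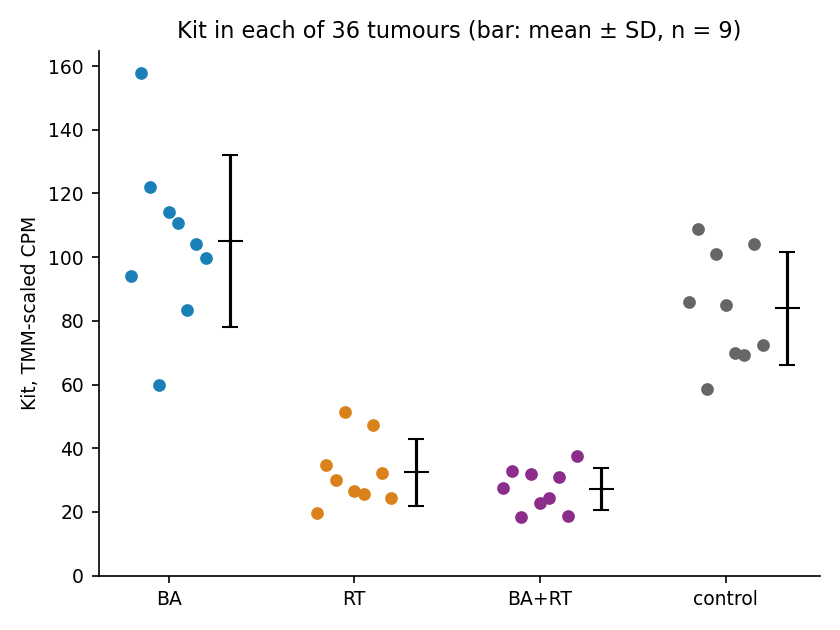
Kit in each tumour, in TMM-scaled CPM on a linear axis that starts at 0, with 1 point per mouse and the group mean ± SD as a bar (n = 9 each). Every RT and BA+RT point lies at or below 51.4, under every BA and control point.

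Relative to control, the fitted log2 fold change of Kit was -1.37 (SE 0.18) with RT, a 2.58-fold lower level, and all 9 RT tumours were below all 9 control tumours. With BA+RT it was -1.62 (SE 0.18), a 3.08-fold lower level, and again all 9 tumours were below every control. BA+RT against BA gave -1.95 (SE 0.18), a 3.86-fold lower level with no overlap. The pooled SD of Kit within groups was 0.37 on the log2 scale. Among the 1038 genes that passed the filter on low counts, Kit had the 12th lowest log2 fold change with RT, the 10th lowest with BA+RT against control and the 17th lowest with BA+RT against BA.

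With BA alone, and with BA on top of radiation, the ranges of Kit overlapped with those of the mice without BA. BA against control gave a log2 fold change of 0.33 (SE 0.17), and 4 BA tumours lay above all controls. BA+RT against RT gave -0.25 (SE 0.18), and 2 BA+RT tumours lay below all RT tumours. The difference between those 2 effects of BA was -0.58 (SE 0.25), and 85 of the 1038 genes, Kit included, had a difference as negative or more. The groups rank BA, control, RT and BA+RT from high to low, and the neighbours BA and control, and RT and BA+RT, overlapped.

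Irradiated libraries reached higher totals than unirradiated ones. Totals on the panel that holds Kit ran from 959532 to 1763286 in BA libraries, 1526991 to 2616197 in RT libraries, 1756429 to 2178557 in BA+RT libraries and 1060824 to 1956764 in control libraries. Kit itself had a lowest, median and highest count of 60, 150 and 228 in BA libraries, 38, 63 and 101 in RT libraries, 33, 52 and 70 in BA+RT libraries and 75, 143 and 164 in control libraries. The coefficient of variation of Kit was 25.7% in BA, 32.8% in RT, 24.4% in BA+RT and 21.05% in control tumours. Poisson counting error at these counts would be 8.21%, 12.6%, 13.8% and 8.86% in the same groups, if each count were 1 molecule. Within groups, r between Kit and the log2 panel total was 0.22 over 36 mice. Panel totals of the other panel ran from 314621 to 841046.

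The rest of the panels gives the scale for what follows. A gene is called changed at an adjusted p below 0.05 in edgeR's quasi-likelihood test, adjusted over 1038 genes by Benjamini-Hochberg. BA against control called 280 genes, 27% of those tested, with 12.5% higher and 14.5% lower. RT against control called 432 genes, 41.6%, with 20.5% higher and 21.1% lower. BA+RT against control called 494 genes, 47.6%, with 23.4% higher and 24.2% lower. BA+RT against RT called 112 genes, 10.8%, and BA+RT against BA called 555 genes, 53.5%, with 27.1% higher and 26.4% lower. The test of whether the effect of BA depended on radiation called 86 genes, 8.29%. Scaled to the 9 reference genes of each panel in place of TMM, the median log2 fold change over all genes shifted to 0.19 with RT, 0.14 with BA+RT against control and 0.20 with BA+RT against BA. The calls then split into 422 higher and 79 lower with RT, 387 and 157 with BA+RT against control, and 472 and 147 with BA+RT against BA. They split into 99 higher and 183 lower with BA against control, and 19 and 96 with BA+RT against RT. On the reference genes Kit still had log2 fold changes of -1.17 with RT, -1.44 with BA+RT against control and -1.75 with BA+RT against BA.

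Of the ligands and type III receptor kinases related to KIT, 5 of 12 were on the panels. With RT against control, 2 were higher and 2 lower, beside backgrounds of 20.5% and 21.1%, with a median log2 fold change of 0.03 against -0.01 over all genes. With BA+RT against control, 1 was higher and 3 were lower, beside 23.4% and 24.2% (median -0.45, against 0.01 over all genes). With BA, 2 were higher and 2 lower, beside 12.5% and 14.5% (median -0.15, against 0.00 over all genes).

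The receptor Csf1r, which macrophages need for survival, had 1781, 2066 and 2366 CPM in BA, 911, 1133 and 1319 CPM in RT, 938, 1262 and 1572 CPM in BA+RT and 1312, 1718 and 1992 CPM in control tumours, as lowest, median and highest. The RT and control ranges met only at their edges, and the BA+RT range reached further into that of the controls. Csf1r fell with RT by 0.55 on the log2 scale (SE 0.09, adjusted p = 4.11e-06) and with BA+RT against control by 0.47 (SE 0.09, adjusted p = 3.93e-05), lower than the control mean in 9 of 9 mice each time. Unlike its direction under radiation, Csf1r rose with BA (log2 fold change 0.29, SE 0.09, adjusted p = 0.0122). Its ligand Csf1 went the other way under radiation.

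Csf1 had 1119, 1415 and 1786 CPM in BA, 1564, 1807 and 1988 CPM in RT, 1703, 2068 and 2538 CPM in BA+RT and 837, 1118 and 1471 CPM in control tumours. No irradiated tumour overlapped with a control. Csf1 rose with RT (log2 fold change 0.67, SE 0.08, adjusted p = 3.77e-08), with BA+RT against control (0.85, SE 0.08, adjusted p = 2.45e-10) and with BA (0.32, SE 0.08, adjusted p = 0.00292).

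Pdgfrb, the receptor of pericytes and fibroblasts, had 349, 456 and 537 CPM in BA, 288, 417 and 532 CPM in RT, 277, 316 and 405 CPM in BA+RT and 486, 631 and 818 CPM in control tumours. BA+RT tumours all lay below the controls, whereas the BA and RT ranges overlapped with control. Pdgfrb fell in all 3 treated groups, by 0.48 with BA (adjusted p = 0.000665), 0.63 with RT (adjusted p = 9.07e-06) and 0.94 with BA+RT (adjusted p = 7.51e-09) on the log2 scale. Among the PDGF ligands, Pdgfa rose with RT (log2 fold change 0.29, adjusted p = 0.0288) and Pdgfb did not pass the test (0.03, adjusted p = 0.866). The Pdgfa call was lost without control mouse 7 (adjusted p = 0.0616), control mouse 9 (0.0652), RT mouse 22 (0.0538) or RT mouse 23 (0.0854). Within groups, r with Kit over these 5 genes ran from -0.10 for Csf1r to 0.30 for Pdgfa, with a median of 0.26.

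Of 44 genes listed for signalling below KIT, 9 were on the panels. With RT 1 was higher and 2 were lower, beside 20.5% and 21.1% of all genes (median log2 fold change -0.13, against -0.01 over all genes). With BA+RT against control 2 were higher and 2 lower, beside 23.4% and 24.2% (median -0.09, against 0.01 over all genes). Jak2, a kinase that activates STAT factors, fell by 0.36 with RT (SE 0.10, adjusted p = 0.00326) and by 0.27 with BA+RT against control (SE 0.10, adjusted p = 0.0212). Ptpn11, the phosphatase SHP2 that carries receptor signals to the MAP kinases, rose by 0.29 with BA+RT against control (SE 0.05, adjusted p = 6e-06). Its rise with RT of 0.15 (SE 0.05, adjusted p = 0.0109) was lost without control mouse 3 (adjusted p = 0.0511), control mouse 8 (0.0566), RT mouse 25 (0.053) or RT mouse 27 (0.0575). Stat3 rose by 0.18 with BA+RT against control (SE 0.05, adjusted p = 0.00446). Within groups, r of the 9 genes with Kit ran from -0.14 for Akt1 to 0.47 for Stat3, with a median of 0.15.

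Mast cells are the cells best known for Kit, and most of their measured genes were not called under radiation. Of 22 mast cell genes, 10 were on the panels and 8 passed the filter. Only Hpgds, the prostaglandin D synthase, was called with RT (0 higher, 1 lower, beside backgrounds of 20.5% and 21.1%). It was likewise the only one called with BA+RT against control (0 higher, 1 lower, beside 23.4% and 24.2%). With BA+RT against BA, 1 was higher and 1 lower, beside 27.1% and 26.4%, and Hpgds was not called. The median log2 fold change of the 8 was -0.08 with RT and 0.31 with BA+RT against control, against -0.01 and 0.01 over all genes. Summed over the 10 genes, the level ran from 356 to 687 CPM in BA, 300.2 to 567 CPM in RT, 371 to 619 CPM in BA+RT and 326 to 789 CPM in control tumours, so the 4 groups overlapped. The sums had medians of 478, 434, 502 and 433 CPM in the same groups. Hpgds and the tryptase gene Tpsab1 made up much of them, with medians of 221 and 92.6 CPM in control tumours.

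The tryptase gene Tpsab1 had 53.1, 135 and 323 CPM in BA, 61.4, 133 and 229 CPM in RT, 90.9, 209 and 234 CPM in BA+RT and 30.2, 92.6 and 317 CPM in control tumours. All groups overlapped, and its log2 fold change was 0.25 with RT (SE 0.35, adjusted p = 0.6). The carboxypeptidase gene Cpa3 had 14.8, 38.9 and 67.6 CPM in BA, 8.90, 37.1 and 97.2 CPM in RT, 31.0, 61.4 and 108 CPM in BA+RT and 6.16, 28.2 and 70.5 CPM in control tumours. Its values overlapped too, with 0.25 (SE 0.38, adjusted p = 0.633) with RT and 0.82 (SE 0.38, adjusted p = 0.0718) with BA+RT against control. Scaled to the reference genes, both were called higher with BA+RT against control, Tpsab1 at 0.81 (adjusted p = 0.049) and Cpa3 at 0.96 (adjusted p = 0.0382). With TMM Tpsab1 had 0.67 there (SE 0.35, adjusted p = 0.114). The second tryptase, Tpsb2, was read at 1 to 42 counts per library and was not called in any comparison. Tpsb2 and Tpsab1 are close relatives; each amplicon matched 1 gene exactly, but how the authors' counting treats near matches was not given in the sources used here.

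Hpgds fell by 0.39 with RT (SE 0.11, adjusted p = 0.00579) and by 0.49 with BA+RT against control (SE 0.11, adjusted p = 0.00068). On the reference genes Hpgds was not called with RT, at -0.16. The histamine-forming enzyme Hdc fell by 0.67 with BA against control (SE 0.22, adjusted p = 0.0198), a call lost without control mouse 6 (adjusted p = 0.0591), and had a log2 fold change of 0.21 with RT (adjusted p = 0.465). Ctsg, the serine protease cathepsin G of mast cells and neutrophils, had 24.8, 39.6 and 93.7 CPM in BA tumours and 0, 1.90 and 6.30 CPM in control tumours, with no overlap, and rose by 4.34 (SE 0.57, adjusted p = 8.31e-07). Prtn3, a neutrophil granule protease, rose with it in BA tumours by 1.74 on the log2 scale (SE 0.22, adjusted p = 7.17e-07). With BA+RT against BA, Ctsg was lower (log2 fold change -3.17, SE 0.51, adjusted p = 3.69e-06) and Hdc higher (0.91, SE 0.21, adjusted p = 0.000615). Of the defining mast cell genes under the filter, Cma1 had at most 10 counts in a library and Ms4a2, a chain of the high-affinity IgE receptor, at most 6. Within groups, r of the 8 genes with Kit ran from -0.26 for Hdc to 0.23 for Ctsg, with a median of -0.16, against 0.02 over all genes.

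**Figure D2:**
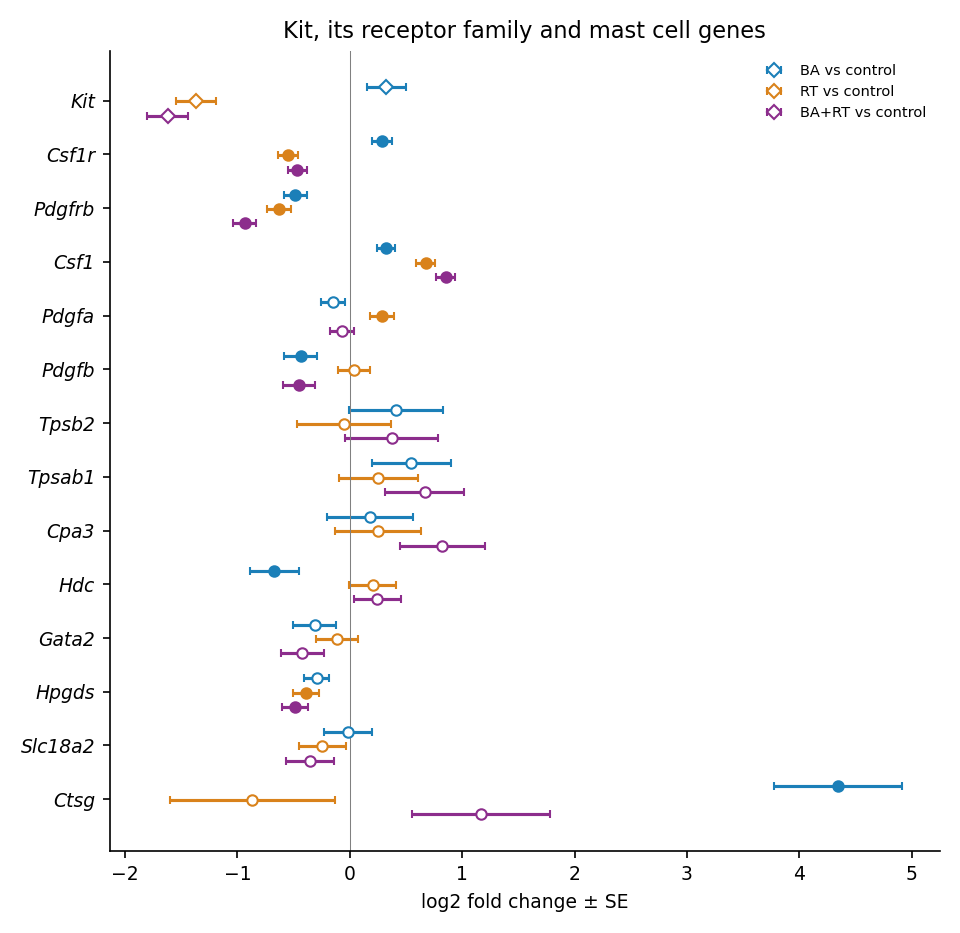
Log2 fold changes ± SE for Kit (diamonds, not tested), the 5 measured relatives and ligands, and the 8 tested mast cell genes, for BA, RT and BA+RT against control. Filled points passed an adjusted p of 0.05; with RT, Kit lies at -1.37 and the only filled mast cell point is Hpgds at -0.39.

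Several chemokines and cytokines that act on mast cells were higher under radiation. Of 17 listed, 13 were on the panels and 10 passed the filter. With RT 4 were higher and 0 lower, beside 20.5% and 21.1% of all genes (median log2 fold change 0.58, against -0.01 over all genes). With BA+RT against control 6 were higher and 2 lower, beside 23.4% and 24.2% (median 0.56, against 0.01). With BA 0 were higher and 2 lower, beside 12.5% and 14.5% (median 0.00, as over all genes). The chemokine Ccl5 rose by 2.71 with RT (SE 0.19, adjusted p = 2.19e-13) and by 2.52 with BA+RT against control (SE 0.19, adjusted p = 1.67e-12). Ccl2 rose by 2.33 with RT (SE 0.26, adjusted p = 7.63e-09) and Ccl3 by 1.45 (SE 0.23, adjusted p = 6.29e-06). Their r with Kit within groups stayed between -0.29 for Cxcl12 and 0.34 for Ccl3, the ends of the list.

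Other cells that can carry Kit were sparsely measured. Of 20 blood stem and progenitor genes, 9 were on the panels and 7 passed the filter. With RT 1 of the 7 was higher and 2 were lower, beside 20.5% and 21.1% of all genes. With BA+RT against BA 0 were higher and 5 lower (Cd34, Tal1, Cd27, Cd48 and the neutrophil protease Prtn3), beside 27.1% and 26.4% (median log2 fold change -0.54, against 0.02 over all genes). Cd34, a sialomucin of progenitor and endothelial cells, fell by 0.50 with RT (SE 0.12, adjusted p = 0.000966) and by 0.95 with BA+RT against control (SE 0.12, adjusted p = 9.33e-08). Cd34 also fell with BA alone, by 0.41 (SE 0.12, adjusted p = 0.00973), where Kit was not lower. Tal1, a transcription factor of blood stem cells, fell by 0.71 with RT (SE 0.22, adjusted p = 0.00935) and by 0.64 with BA+RT against control (SE 0.22, adjusted p = 0.0154). Tal1 was read at 5 to 37 counts per library, and its r with Kit was 0.05. The 1 gene called higher with RT was Cd48 (log2 fold change 0.25, SE 0.10, adjusted p = 0.049), whose r with Kit was -0.25. The Cd48 call was lost without any of many single mice, control mouse 4 among them (adjusted p = 0.145). Cd34 had an r of 0.38 with Kit within groups, the highest of its list. Of 16 innate lymphoid genes, 8 passed the filter. With RT 0 of the 8 were higher and 2 lower, beside 20.5% and 21.1% of all genes, and their median r with Kit was -0.06. The pigment cell genes Tyr, Tyrp1 and Dct were near 0, with at most 1 count in a library and no count in 34, 33 and 33 mice. Of the other pigment cell genes under the filter, Pmel was counted in all 36 mice, with at most 17 counts in a library, and Mlana in 24 mice, with at most 5. Rab38 and Ednrb passed the filter, and both were lower with BA (log2 fold changes -1.64 and -0.76, adjusted p = 6.45e-06 and 0.0149) and with BA+RT against control (-1.23 and -0.59, adjusted p = 4.74e-05 and 0.038). The Ednrb calls were lost without control mouse 6 (adjusted p = 0.0583 and 0.15), and the call with BA+RT also without any of BA+RT mice 37, 39, 40 and 44 or control mice 4, 5 and 9 (adjusted p from 0.0507 to 0.0752).

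Of the 5 measured genes listed for mammary epithelium, 3 were lower in each treated group against control, BA included. The summed level of the 5 mammary epithelial genes on the panels ran from 8785 to 11627 CPM in BA, 6523 to 10596 CPM in RT, 5272 to 9589 CPM in BA+RT and 10302 to 15782 CPM in control tumours. Most of this sum was Epcam. Its median was 11224 CPM beside 12358 CPM for the sum in control tumours, and 6210 beside 7403 CPM in RT tumours. With BA 0 were higher and 3 lower (Epcam, Muc1 and Itgb3), beside 12.5% and 14.5% of all genes (median log2 fold change -0.30, against 0.00). With RT 1 was higher and 3 were lower (Epcam, Erbb2 and Itgb3), beside 20.5% and 21.1% (median -0.44, against -0.01). With BA+RT against control 1 was higher and 3 were lower (Epcam, Itgb3 and Cd14), beside 23.4% and 24.2% (median -0.36, against 0.01). Cd14, listed for luminal progenitor cells, is also a receptor of myeloid cells. Epcam had 7810, 9411 and 10699 CPM in BA, 5407, 6210 and 9287 CPM in RT, 4172, 6684 and 8574 CPM in BA+RT and 9359, 11224 and 14437 CPM in control tumours. Irradiated tumours all lay below the controls, and Epcam fell by 0.81 with RT (SE 0.11, adjusted p = 2.95e-07) and by 0.75 with BA+RT against control (SE 0.11, adjusted p = 8.52e-07). Its fall of 0.30 with BA (SE 0.11, adjusted p = 0.0384) was lost without any of BA mice 10, 16 and 18 or control mice 2 and 4 (adjusted p from 0.0571 to 0.0777). Muc1, a mucin of gland surfaces, rose by 2.32 with RT (SE 0.22, adjusted p = 3.41e-10) and fell by 1.004 with BA (SE 0.23, adjusted p = 0.00119). Within groups, r of Epcam with Kit was 0.21, and r over the 5 genes ran from -0.10 for Muc1 to 0.47 for Itgb3, with a median of 0.17. Itgb3, the integrin β3 gene, is listed for luminal progenitor cells but was not measured by cell type here. A second Itgb3 amplicon, on the panel that does not hold Kit, gave an r of 0.56. The part of the epithelial share in the level of Kit was not tested.

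Over all genes, 20.5% were called higher and 21.1% lower with RT against control. The remaining marker lists are given for that comparison as higher and lower of the genes tested, with the median r with Kit within groups. They were 0 and 2 of 11 T cell genes (r -0.07), 0 and 0 of 8 cytotoxic and NK cell genes (0.07), 5 and 2 of 8 macrophage genes (-0.26) and 1 and 0 of 8 neutrophil genes (0.13). They were 0 and 2 of 7 fibroblast and pericyte genes (-0.02), 1 and 0 of 2 endothelial genes (0.34), 0 and 0 of 2 dendritic cell genes (0.06) and 0 and 1 of 2 basophil and eosinophil genes (-0.08). Neither the 2 pigment cell genes that passed the filter (-0.26), the 1 muscle gene (-0.24) nor the 1 B cell gene (0.03) was called with RT. Some lists moved more in other comparisons. With BA+RT against BA, 0 T cell genes were higher and 9 lower (median log2 fold change -1.81), beside 27.1% and 26.4%. Of the cytotoxic and NK cell genes 1 was higher and 5 were lower there (-1.39). With BA against control these 2 lists had 5 and 6 genes higher and 0 and 1 lower (1.12 and 1.97), beside 12.5% and 14.5%.

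Kit also varied between mice of the same group, and this variation was shared with some genes. Likeness was measured as Pearson r of log2 CPM with each group's mean subtracted, over the 36 mice. The points share library and depth, and the 10 highest and 5 lowest genes are named. Over the other 1037 genes r had a median of 0.02, and the 5th and 95th percentiles were -0.35 and 0.39. The 10 nearest genes were Tnfrsf9 (0.73), Gadd45a (0.63), Dusp2 (0.61), Cebpb (0.59), Npepps (0.59), Cblb (0.57), Vash1 (0.57), Ifngr1 (0.52), Hbegf (0.51) and Btg3 (0.50). Abcc4 came next at 0.49. The 5 farthest were Cdc25c (-0.62), Lig1 (-0.59), Pask (-0.59), Fanca (-0.58) and Brca1 (-0.57), with Msh6 next at -0.54. Scaled to the reference genes, r was -0.40 for Cdc25c, -0.48 for Lig1, -0.53 for Pask, -0.44 for Fanca and -0.42 for Brca1. For the 10 nearest genes it then ran from 0.44 for Ifngr1 to 0.71 for Tnfrsf9. Scaled to total counts, r of the 10 ran from 0.39 for Ifngr1 to 0.70 for Tnfrsf9.

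Tnfrsf9, the costimulatory receptor 4-1BB of activated T and NK cells, was the nearest. Its r with Kit was 0.90 in BA, 0.88 in RT, 0.31 in BA+RT and 0.69 in control tumours. Spearman's rho over all 36 mice was 0.71. Leaving out 1 mouse at a time kept r between 0.69 and 0.77, and r was 0.66 without BA mouse 13 and RT mouse 19, the 2 mice farthest from the median of Kit. In BA mouse 13, the lowest BA tumour for Kit at 59.8 CPM, Tnfrsf9 was also lowest at 93.8 CPM. RT mice 22 and 25, the highest RT tumours for Kit at 51.4 and 47.4 CPM, had the highest Tnfrsf9 at 123 and 124 CPM.

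**Figure D3:**
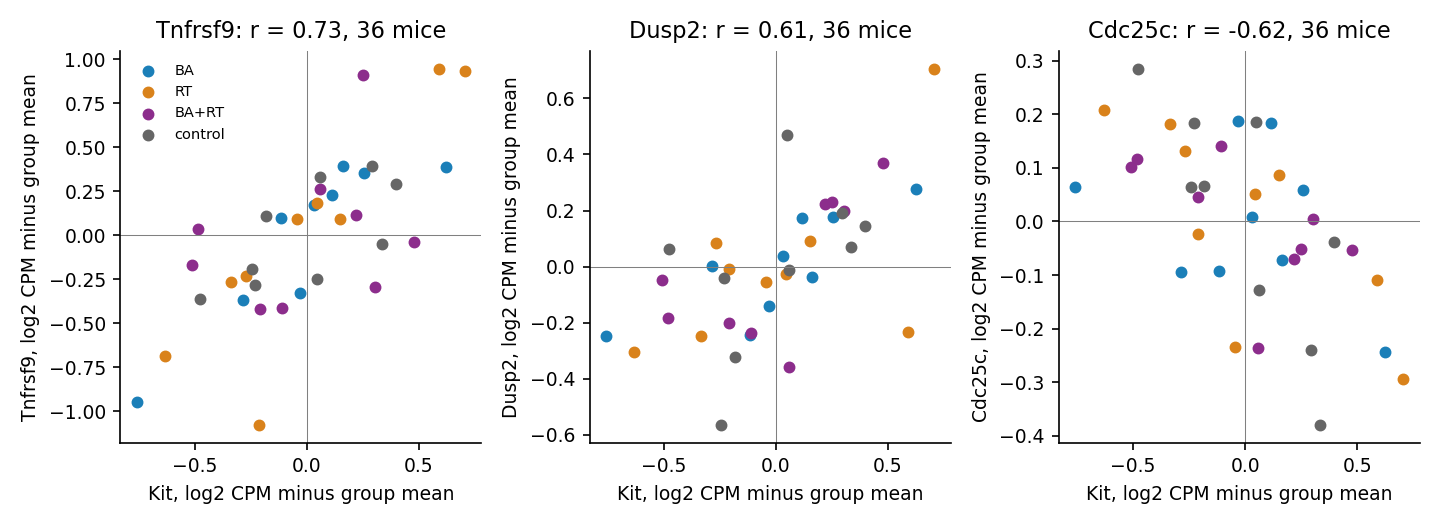
Deviations from the group mean, in log2 CPM, of Kit (horizontal axes) against Tnfrsf9, Dusp2 and Cdc25c (vertical axes), with 1 point per mouse coloured by group. Tnfrsf9 (r = 0.73) and Dusp2 (0.61) increase along Kit and Cdc25c (-0.62) decreases; 1 BA+RT point, mouse 40, sits high for Tnfrsf9 at 115 CPM.

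The nearest genes have different known roles. Gadd45a is a stress gene that slows the cell cycle after DNA damage, and Dusp2 is a phosphatase that switches off MAP kinases. Cblb is a ubiquitin ligase that damps receptor signals, Btg3 is antiproliferative, and Vash1 restrains vessel growth. Cebpb is a transcription factor of myeloid and inflammatory genes, Ifngr1 is a chain of the interferon-γ receptor, Hbegf is a ligand of the EGF receptor, and Npepps is an aminopeptidase. Cebpb was read on the other panel, in a separate library from Kit. A second amplicon for Gadd45a on that panel gave the same r of 0.63.

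In BA+RT tumours r was near 0 or negative for several of these genes. It was 0.04 for Gadd45a, 0.01 for Npepps, 0.13 for Ifngr1 and -0.20 for Btg3, whereas Gadd45a had 0.76 in BA, 0.87 in RT and 0.76 in control tumours. Dusp2, Cebpb, Cblb and Vash1 kept an r of 0.69, 0.55, 0.57 and 0.48 in BA+RT tumours. The difference between groups was not tested, and each group holds 9 mice. Kit itself had an SD of 0.35 on the log2 scale in BA+RT tumours, 0.38 in BA, 0.43 in RT and 0.30 in control tumours. Its Poisson counting error would be 13.8%, beside a coefficient of variation of 24.4%, in BA+RT tumours, if each count were 1 molecule. The same values are 8.21% beside 25.7% in BA, 12.6% beside 32.8% in RT and 8.86% beside 21.05% in control tumours. The part of counting error in these r values was not tested.

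**Figure D4:**
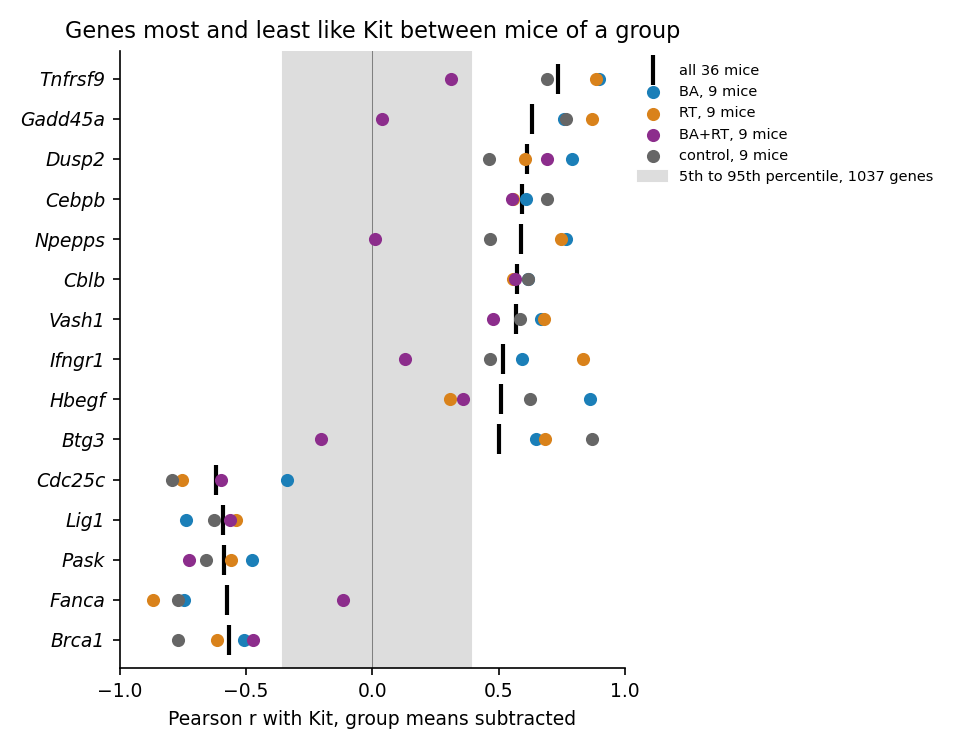
Pearson r with Kit for the 10 nearest and 5 farthest genes, over all 36 mice with group means subtracted (black bars) and within each group of 9 mice (points). The grey band spans the 5th to 95th percentile over 1037 genes, -0.35 to 0.39. It is drawn from r over 36 mice, so it gives no range for the points of 9 mice. BA+RT points of Gadd45a (0.04), Npepps (0.01) and Btg3 (-0.20) lie near 0 or below.

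Among the farthest genes, Cdc25c is the phosphatase that starts mitosis, Lig1 joins newly copied DNA strands, Fanca is a core member of the Fanconi anaemia pathway and Brca1 serves homologous recombination. Pask is a nutrient-sensing kinase. Cdc25c, Lig1, Fanca and Brca1 were read on the other panel, whose r with Kit had a 5th percentile of -0.48 over 244 genes, against -0.32 over 793 genes on the panel that holds Kit. A second Cdc25c amplicon on the panel that holds Kit gave -0.47. Among genes read on the other panel, the highest after Cebpb were Crebbp (0.47) and Nfib (0.46).

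Because the group means were subtracted before these genes were ranked, their differences between groups were not used in the ranking. Each gene was tested singly. Kit and the rules were chosen with earlier results of these data known, so the counts below are a description and were not tested as a set. Of the 10 nearest genes, 7 were lower and 0 higher with RT, beside 21.1% and 20.5% of all genes, with a median log2 fold change of -0.32. Scaled to the reference genes, 3 of the 10 were lower with RT, beside 7.61% of all genes. With BA+RT against control 5 were lower and 0 higher, beside 24.2% and 23.4% (median -0.23), and with BA+RT against BA 7 were lower and 0 higher, beside 26.4% and 27.1% (median -0.43). With BA against control 2 were higher and 0 lower, beside 12.5% and 14.5% (median 0.12). With BA+RT against RT 1 was higher and 0 lower, beside 10.8% called in either direction. Comparisons here share their control or BA+RT mice, so their counts are not independent.

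Tnfrsf9 had 93.8, 205 and 239 CPM in BA, 29.6, 68.2 and 124 CPM in RT, 45.1, 59.0 and 115 CPM in BA+RT and 97.9, 122 and 166 CPM in control tumours. Both irradiated ranges overlapped with control. The highest RT tumour, at 124 CPM, lay above the control median, and the highest BA+RT tumour, at 115 CPM, lay below it. Tnfrsf9 fell by 0.87 with RT (SE 0.22, adjusted p = 0.00173), by 1.02 with BA+RT against control (SE 0.22, adjusted p = 0.000267) and by 1.58 with BA+RT against BA (SE 0.22, adjusted p = 5.4e-07). With BA its log2 fold change was 0.56 (SE 0.22, adjusted p = 0.0536).

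Vash1 had 171, 201 and 278 CPM in BA, 145, 159 and 206 CPM in RT, 99.0, 132 and 158 CPM in BA+RT and 183, 256 and 333 CPM in control tumours. No BA+RT tumour overlapped with a control. Vash1 fell by 0.64 with RT (SE 0.11, adjusted p = 1.01e-05) and by 0.95 with BA+RT against control (SE 0.11, adjusted p = 8.18e-09).

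Dusp2 had 173, 205 and 248 CPM in BA, 130, 158 and 264 CPM in RT, 116, 144 and 193 CPM in BA+RT and 155, 239 and 318 CPM in control tumours. The ranges overlapped, and Dusp2 fell by 0.50 with RT (SE 0.13, adjusted p = 0.00147) and by 0.63 with BA+RT against control (SE 0.13, adjusted p = 0.000107). Cblb fell by 0.32 with RT (SE 0.07, adjusted p = 0.000387) and Ifngr1 by 0.32 (SE 0.06, adjusted p = 0.000102); on the reference genes neither was called, at -0.12 and -0.11. Gadd45a fell by 0.41 with RT (SE 0.14, adjusted p = 0.0172) and had a log2 fold change of 0.05 with BA+RT against control (adjusted p = 0.775). On the reference genes Gadd45a was not called with RT, at -0.20.

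Hbegf fell by 0.20 with RT (SE 0.07, adjusted p = 0.0256), and on the reference genes its value was -0.0022 and not called. The call was also lost without control mouse 2 (adjusted p = 0.0664) or RT mouse 20 (0.0555). Cebpb rose with BA by 0.52 (SE 0.09, adjusted p = 5.48e-05) and fell by 0.41 with BA+RT against BA (SE 0.09, adjusted p = 0.000314), and it had -0.08 with RT (adjusted p = 0.511). Npepps had log2 fold changes of -0.03 with RT and 0.01 with BA+RT against control (adjusted p = 0.713 and 0.851).

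Where called in these comparisons, the 5 farthest genes went in the opposite direction. With BA against control 0 were higher and 4 lower, beside 12.5% and 14.5% of all genes (median log2 fold change -0.36). With RT 2 were higher, 0 lower and 3 not called, beside 20.5% and 21.1% (median 0.08). With BA+RT against control 1 was higher, 0 lower and 4 not called, beside 23.4% and 24.2% (median 0.17). With BA+RT against BA 4 were higher and 0 lower, beside 27.1% and 26.4% (median 0.53). Brca1 fell by 0.29 with BA (SE 0.09, adjusted p = 0.0127) and rose by 0.58 with BA+RT against BA (SE 0.09, adjusted p = 1.96e-06). Its rise of 0.26 with RT (SE 0.09, adjusted p = 0.0161) was lost without control mouse 4 (adjusted p = 0.0535). Cdc25c fell by 0.36 with BA (SE 0.08, adjusted p = 0.000844) and rose by 0.53 with BA+RT against BA (SE 0.08, adjusted p = 1.36e-06). Lig1 fell by 0.38 with BA (SE 0.07, adjusted p = 9.73e-05) and had -0.04 with RT (SE 0.07, adjusted p = 0.707). Fanca rose by 0.50 with RT (SE 0.16, adjusted p = 0.0109) and by 0.76 with BA+RT against BA (SE 0.16, adjusted p = 0.000203). Its log2 fold change with BA was -0.49 (SE 0.16, adjusted p = 0.024). That call was lost without BA mouse 15 (adjusted p = 0.0514), control mouse 5 (0.0545) or control mouse 7 (0.0636).

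**Figure D5:**
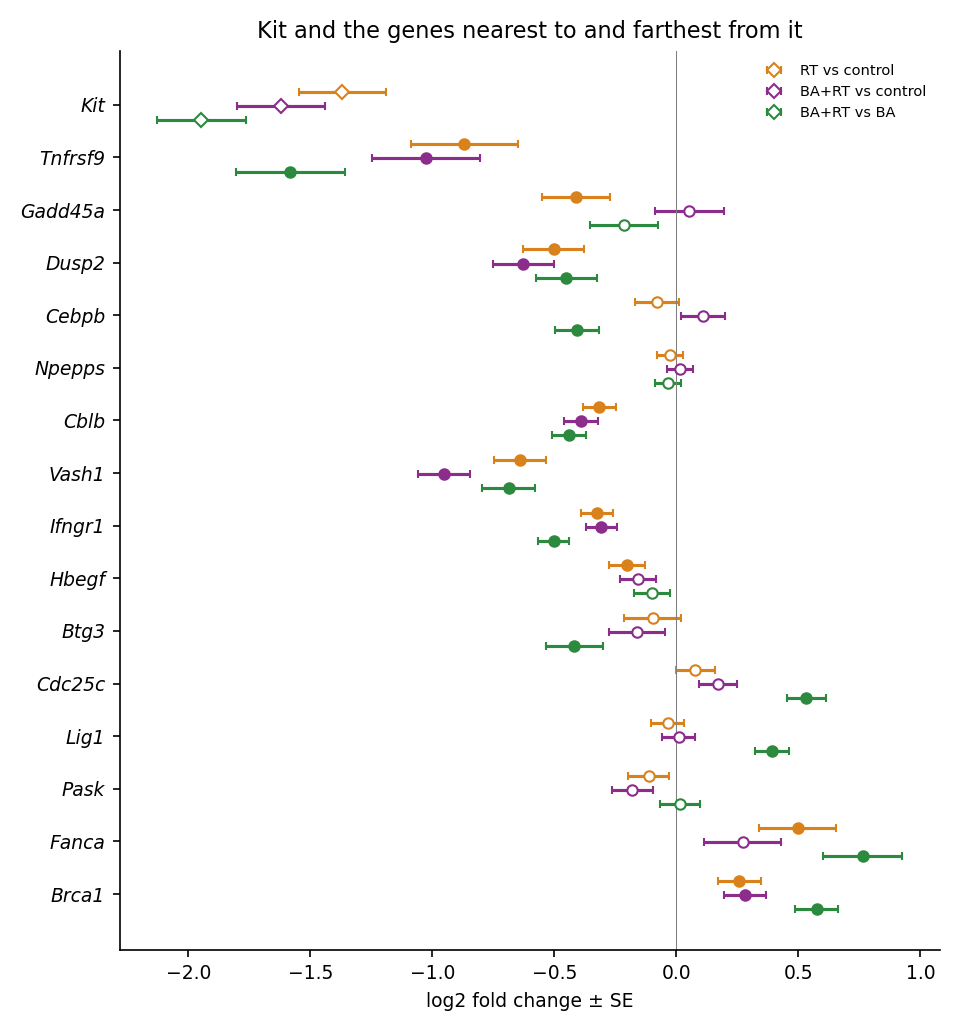
Log2 fold changes ± SE of Kit (diamonds, not tested) and of the 10 nearest and 5 farthest genes, for RT against control, BA+RT against control and BA+RT against BA. Filled points passed an adjusted p of 0.05; Kit lies at -1.37, -1.62 and -1.95, and Tnfrsf9 at -0.87, -1.02 and -1.58.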

How the data were processed

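Tumour RNA of 36 mice was read on 2 targeted amplicon panels, giving 72 libraries with 992 and 286 amplicons. The authors deposited raw counts per gene amplicon and regularized log2 values. DESeq2 is named without a version, per the submitters' processing notes. The aligner, and whether reads or molecular barcodes were counted, were not given in the sources used here. Position columns are headed GRCh38, but Kit and Tnfrsf9 were located in GRCm38 with GENCODE M21. Which panel is the immuno-oncology one was not stated in the labels used here.

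Counts were fitted per panel with edgeR 4.0.16 (R 4.3.3, TMM, low counts removed by group, robust quasi-likelihood test, all 4 groups). P-values were adjusted over 1038 genes, taking for the 54 genes on both panels the amplicon with the larger total. Rows of genomic DNA controls, 5 per panel, held 19 counts in all and were left out. Within-group r used log2 CPM with a prior count of 2. Libraries of a group differed by at least 13.4 times the counting variance expected. The labels do not say whether mice were treated in separate batches, and p-values set differences between groups against the spread between mice. The fit was tested on simulated counts with known changes. Alternatives were other scalings, no filter, DESeq2 1.42.0, limma 3.58.1 on the deposited log2 values, 2-group fits and leaving out mice. The Poisson values given for Kit cover counting error only.

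Named genes were the 5 relatives and ligands, the 8 mast cell genes, up to 3 called members per other list and direction, and the 10 nearest and 5 farthest genes by within-group r, plus the 3 at each end on the other panel. The gene, the lists and the rules were chosen with earlier results of these data known. A called member of the signalling list is not reported here.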

Additional observations from a re-analysis of the deposited data

Results flagged for a closer look

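Kit had no mouse far from its group. Of 116 gene-by-group sets checked (29 genes in 4 groups of 9), 13 had 1 mouse whose gap to the next exceeded the 95% limit. Chance gives about 1 in 20 where values are normally distributed and sets independent. Here all 13 were high values on the linear CPM scale, and some mice were flagged for several genes. The count is therefore not read as an excess over chance. RT mouse 22, the highest RT tumour for Kit, was far above its group for Gadd45a (8157 CPM, next 6207), Dusp2 (263.7, next 171.6), Vash1 (205.7, next 172.6) and Hbegf (1213, next 992.7). BA+RT mouse 40 was far above for Tnfrsf9 (114.8 CPM, next 72.91) and Ctsg (28.32, next 6.661). Without that mouse, Ctsg was not called in BA+RT against RT (adjusted p = 0.344, edgeR).

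BA mouse 13, the lowest BA tumour for Kit, was far above its group for Hdc (36.91 CPM, next 22.11) and Slc18a2 (27.93, next 13.15), the vesicular amine transporter. Control mouse 6 was far above for Hdc (55.96 CPM, next 36.01) and Gata2 (97.92, next 56.51), a transcription factor of mast cells and progenitors. Control mouse 9 was far above for Tpsab1 (316.9 CPM, next 159.6), BA+RT mouse 45 for Hdc (69.77, next 37.3) and BA mouse 11, the highest BA tumour for Kit, for Cblb (603.6, next 531.4).

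The interaction test of edgeR called 2 of the 5 genes farthest from Kit and 0 of the 10 nearest, beside 8.29% of all genes. The interaction was 0.45 on the log2 scale for Cdc25c (adjusted p = 0.00831), whose BA effect was 0.09 with radiation and -0.36 without. Scaled to the reference genes it was 0.44 and not called (adjusted p = 0.059). It was 0.43 for Lig1 (adjusted p = 0.00454), with BA effects of 0.05 and -0.38, and was called on the reference genes too (0.41, adjusted p = 0.0287).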

How the results depend on the processing

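The direction of Kit was the same in every comparison and alternative run. Leaving out 1 mouse at a time gave log2 fold changes of -1.48 to -1.32 with RT, -1.70 to -1.56 with BA+RT against control, -2.02 to -1.85 with BA+RT against BA, 0.23 to 0.40 with BA, -0.31 to -0.14 with BA+RT against RT and -0.65 to -0.47 for the interaction. On the deposited regularized log2 values, which shrink low counts by construction, limma gave -0.76 with RT, -0.86 with BA+RT against control and -1.04 with BA+RT against BA. On the reference genes, 3 in place of 7 of the nearest genes were lower with RT, and Npepps reversed to 0.18 with RT (adjusted p = 0.0042) and 0.16 with BA+RT against BA (adjusted p = 0.00977); the cause was not tested. Without control mouse 8, RT mouse 24 and BA+RT mouse 40, the interaction called 135 genes in place of 86. Of 1313 changes of named genes recomputed under other scalings, filters, tools and sets of groups or without those 3 mice, 1258 kept direction and side of the threshold, 33 gained and 20 lost a call and 2 reversed. Leaving out single mice, 26 of 133 calls of named genes were lost without at least 1 mouse. Of 105 recomputed r values, 91 moved by less than the SD between groups and 14 by more, none changing sign. No paired analysis was possible because no mouse number occurs in more than 1 group. At 33 to 228 Kit counts a library, counting error limits small differences.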
